A study of Mus musculus with 12 samples.

Results

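Interferon-stimulated genes are genes whose transcription rises when a cell receives an interferon signal, and 43 of them were followed here by their gene symbols. All 43 were among the 24421 symbols counted in each library, all 43 had reads in every library, and all 43 passed the filter on low counts. The libraries are poly(A) RNA of 6 liver tumors, each with the non-tumoral liver of its mouse. All 6 mice were fed a standard diet and were older than 18 months. Each mouse is named by the start of its tumor's label, and in the plots by its number alone. The 4 p21+/Tert mice (p_662, p_663, p_941, and T_992) express telomerase reverse transcriptase from the promoter of Cdkn1a, the gene of p21, and the 2 p21+/TertCi mice (L981 and L984) express a catalytically inactive Tert from the same promoter. By exome sequencing, the tumors of mice p_662 and p_663 carry an activating Ctnnb1 mutation, the tumor of mouse p_941 an Egfr mutation, and the tumor of mouse L981 an Hras mutation, whereas those of mice T_992 and L984 carry none of these. In the study's histology, the tumors of mice p_662, p_941, and L981 are hepatocellular carcinomas and those of mice p_663, T_992, and L984 adenomas. Elsewhere the study names the tumor of mouse p_663 a carcinoma. Both Ctnnb1-mutated tumors are p21+/Tert, each genotype and driver class rests on few animals, and no wild-type library was analysed here. The liver paired with the tumor of mouse p_662 carries another animal number in its label. Levels are counts per 1000000 of the scaled library (CPM), from 14571716 to 23932529 counted reads per liver and 17471387 to 26170661 per tumor. Hepatocyte markers were high in every library, with 20579 to 107225 summed CPM over 7 genes, so that the labelled tissue was present in all.

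Interferons are secreted proteins that cells release on sensing foreign or misplaced nucleic acid, or that lymphocytes release when activated. Type I interferons (alpha, beta) and type III interferons (lambda) activate the kinases Jak1 and Tyk2, and a complex that holds Stat2 and Irf9 then binds the interferon-stimulated response element. Type II interferon (gamma), made by T and NK cells, acts through Jak1 and Jak2, and its signal ends at another element, the gamma-activated site. In the liver, hepatocytes, Kupffer cells (the resident macrophages), and endothelial cells can all respond.

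The livers were described first, because 1 of them stood apart. The liver of mouse L981 had the highest level of the 6 livers for 36 of the 43 members, whereas it was the highest for 19% of the 13822 genes tested. Tgtp1, an interferon-inducible GTPase, stood at 108 CPM in this liver and between 2.04 and 9.25 CPM in the other 5, a ratio of 22.4 to their median. Gbp2, a guanylate-binding protein that acts on the membranes of intracellular pathogens, stood at 45.2 CPM against 2.40 to 5.90 CPM in the other 5. In contrast, Plscr1, Ifih1, Irf9, and Parp9 were within 1.14 times the median of the other livers. The liver of mouse L984, of the same genotype, had the lowest level of the 6 livers for 26 of the 43 members (21.8% of all genes tested). Thus both extremes among the livers were p21+/TertCi. Between p21+/TertCi and p21+/Tert livers (n = 2 and 4), 0% of the 15182 genes tested were called by edgeR, members included, while 7 of the 43 members and 4.98% of all genes had an unadjusted p under 0.05. DESeq2 also called 0 members.

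Immune cell markers moved with this library. The 12 macrophage markers summed to 2276 CPM in the liver of mouse L981 and to between 220 and 568 CPM in the other livers. Clec4f and Cd5l, both made by Kupffer cells, were at 439 and 481 CPM in it, against 41.2 to 95.5 CPM and 27.7 to 96.1 CPM elsewhere. The 12 T and NK cell markers in the count table summed to 28.0 CPM there and to between 1.70 and 13.3 CPM in the other 5 livers. In the tumors the macrophage sum ran from 274 to 1751 CPM and the T and NK sum from 3.57 to 45.7 CPM. Marco was at 0 in the tumor of mouse p_662, and up to 3 of the T and NK markers were at 0 in a library. Between tumors and livers, 0 of 12 macrophage markers and 0 of 9 tested T and NK markers passed the test. When each tumor was set against its own liver by a mouse block, Cd68 (adjusted p = 0.0206) and C1qb (adjusted p = 0.05 after rounding, at the threshold) rose. Marco (adjusted p = 0.0379) and Timd4 (adjusted p = 0.0458) fell, and Gzmb of cytotoxic lymphocytes rose (adjusted p = 0.0427). In that fit Itgax of dendritic cells, Pecam1 of endothelial cells, and the collagen genes Col1a1 and Col1a2 rose too. The other markers tested in these 3 lists did not pass, and no list moved in 1 direction. Clec9a (-0.18), Clec4g (-1.31), and Dcn (-1.20) had log2 fold changes below 0, and Cdh5 (0.97) and Col3a1 (1.44) above 0. The part of these cells in the levels of the members was not tested, and in bulk RNA more cells of a type and more RNA per cell cannot be told apart. The tumor of mouse T_992 had 390 CPM of macrophage markers and 6.2 CPM of T and NK markers, within the range of the 5 other livers, while its Tgtp1 was at 134 CPM and its Gbp2 at 89.1 CPM. Its summed dendritic, endothelial, and stellate or fibroblast markers were at 17.6, 289, and 392 CPM, each above that range (6.29 to 14.9, 84.8 to 241, and 49.4 to 246 CPM). By protein imaging of sections, the study placed this tumor among those richest in T lymphocytes and reported more dendritic cells in it. Summed marker RNA and imaged cell shares are unlike measures, and they were not compared here.

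**Figure D1:**
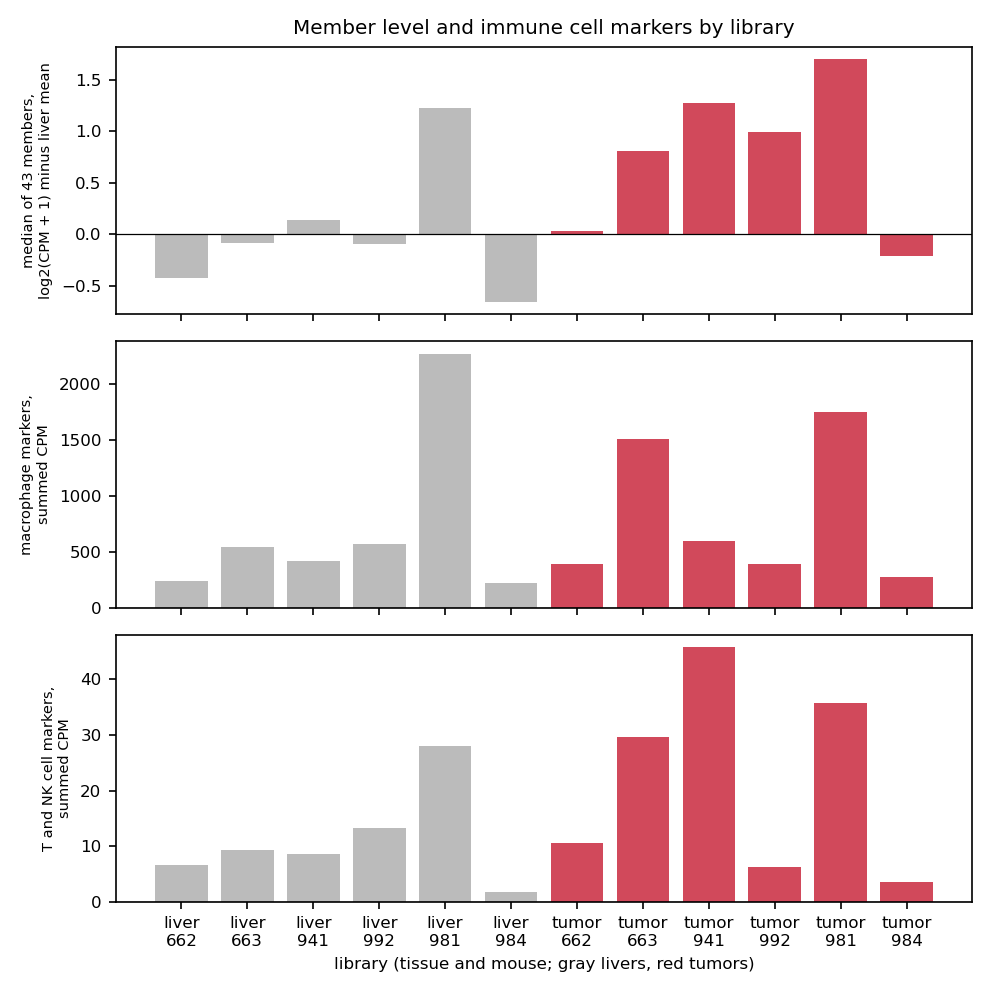
Bars give, for each library (x axis: tissue and mouse), the median over 43 members of log2(CPM + 1) relative to the average liver (top), the summed CPM of macrophage markers (middle), and the summed CPM of T and NK cell markers (bottom), without error bars since each bar is 1 library. The liver of mouse L981 reaches 1.23 on the top axis with 2276 CPM of macrophage markers, and the tumor of mouse T_992 reaches 1.00 with 390 CPM.

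The level of the members as a set was summarized in each library by taking log2(CPM + 1) of each relative to its average over the 6 livers and then the median over the 43. It was -0.65 to 0.14 in the livers other than that of mouse L981, where it was 1.23. In the tumors it was 1.70 in mouse L981, 1.27 in mouse p_941, 1.00 in mouse T_992, 0.81 in mouse p_663, 0.03 in mouse p_662, and -0.21 in mouse L984. In 4 tumors it was therefore above every liver other than that of mouse L981, and in the tumors of mice L981 and p_941 it was above that liver too. The other 2 tumors lay among the livers. The same median over all genes tested was between -0.03 and 0.03 in every library.

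**Figure D2:**
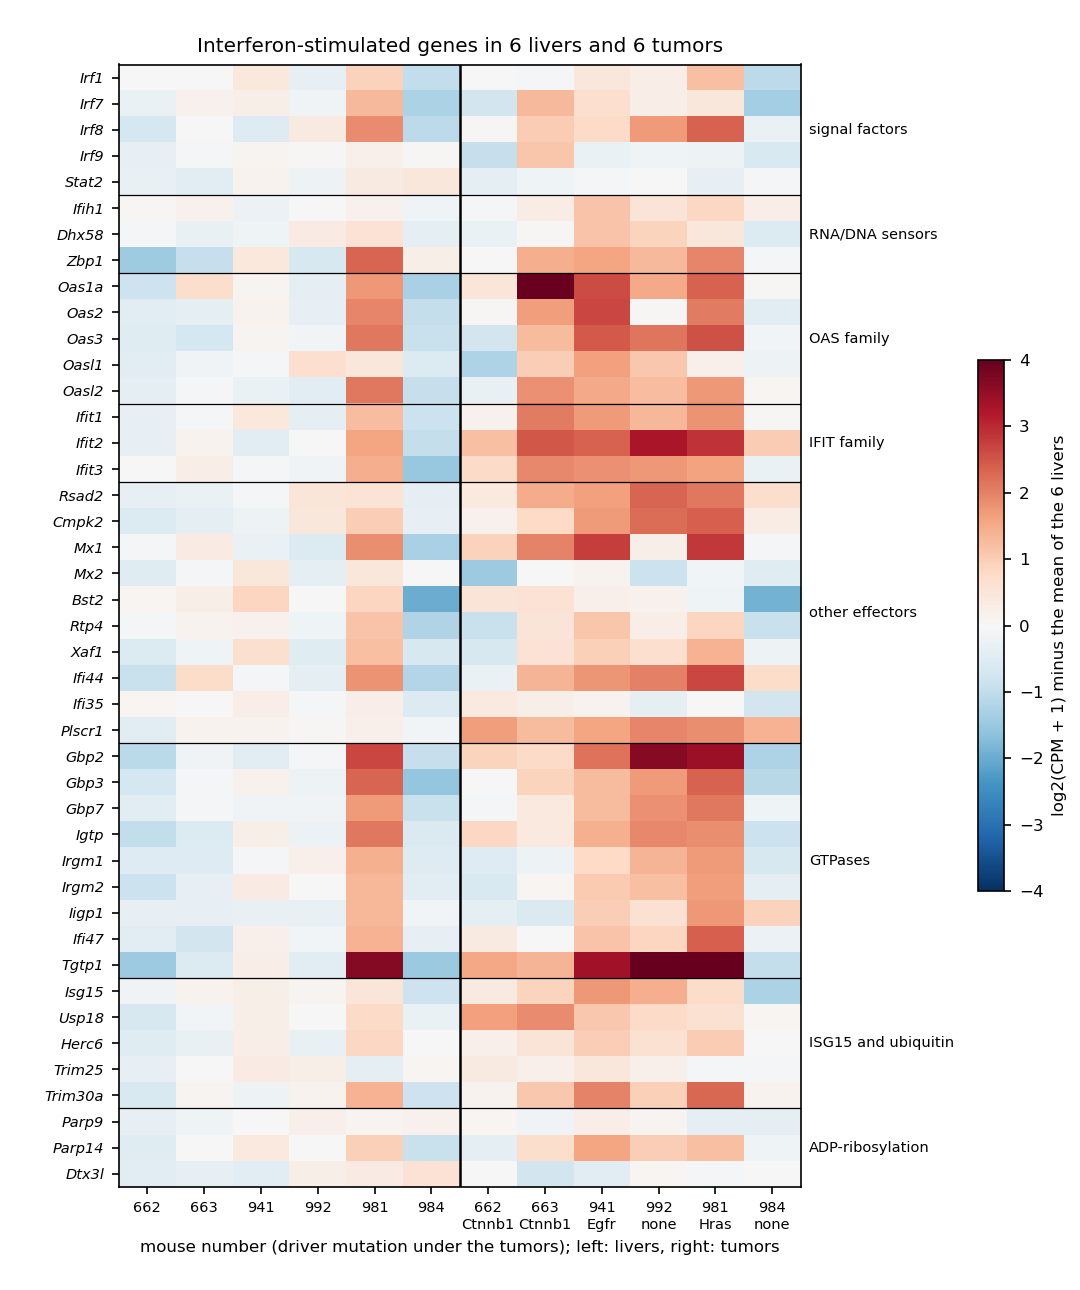
Each row is a member, grouped by role, and each column a library (livers left, tumors right, by mouse number with the driver mutation). Color gives log2(CPM + 1) relative to the average of the livers, from -4 (blue) to 4 (red). The liver of mouse L981 is above 0 in 42 rows and the tumors of mice p_941, T_992, L981, and p_663 in 40, 39, 36, and 36, with the GTPase rows of p_663 paler (median 0.38) than those of L981 (2.10), whereas the tumor of mouse L984 is above 0 in 13.

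Each tumor was next compared with the liver of the same mouse. The tumor was higher for 40 of the 43 members in mouse p_663, 38 in mouse p_941, 37 in mouse T_992, 30 in mouse p_662, 28 in mouse L981, and 27 in mouse L984. Of all genes tested, 49% to 50.4% were higher in the tumor of each mouse. At least a 2-fold excess was seen for 26 members in mouse p_941 (14.7% of all genes tested), 21 in mouse T_992 (9.16%), and 18 in mouse p_663 (10.9%). It was seen for 8 in mouse p_662 (9.93%), 8 in mouse L984 (8.18%), and 4 in mouse L981 (9.78%). In mouse L981 the liver was itself high, as described above. For 18 members the tumor was above its own liver in all 6 mice, which was the case for 11.0% of all genes tested. These were Ifit1, Ifit2, Ifit3, Ifi44, Ifi47, Irf8, Oas1a, Oas2, Rsad2, Cmpk2, Mx1, Gbp3, Gbp7, Irgm2, Tgtp1, Parp14, Trim30a, and Plscr1. Conversely, Irf9 and Mx2 were higher in the tumor of only 1 mouse each.

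When the 6 tumors were tested against the 6 livers, 5 of the 43 members rose and 0 fell, beside 6.77% of 13822 genes that rose and 3.91% that fell. The 5 were Plscr1, Rsad2, Ifit2, Usp18, and Cmpk2. The log2 fold change was above 0 for 36 members (50.9% of all genes), with a median of 0.70 against 0.01 over all genes. With the mouse as a block, 17 members rose and 0 fell, beside 8.64% of genes that rose. Plscr1, Rsad2, Ifit2, and Cmpk2 were again among them, the call of Usp18 was lost (adjusted p = 0.0724), and the 13 added were Irf8, Oas1a, Trim30a, Ifi47, Mx1, Ifit3, Ifit1, Ifi44, Tgtp1, Parp14, Gbp3, Gbp7, and Herc6. Without the liver of mouse L981, 19 members rose (7.89% of genes), and without both libraries of mouse L981, 10 rose (5.49%). Leaving out the tumor of mouse L984 gave 8. Leaving out the liver of mouse p_662, p_663, p_941, T_992, or L984, or the tumor of mouse p_941 or T_992, gave 3. For these last counts the share of all genes is not given, so that they describe only how the calls of the members held.

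**Figure D3:**
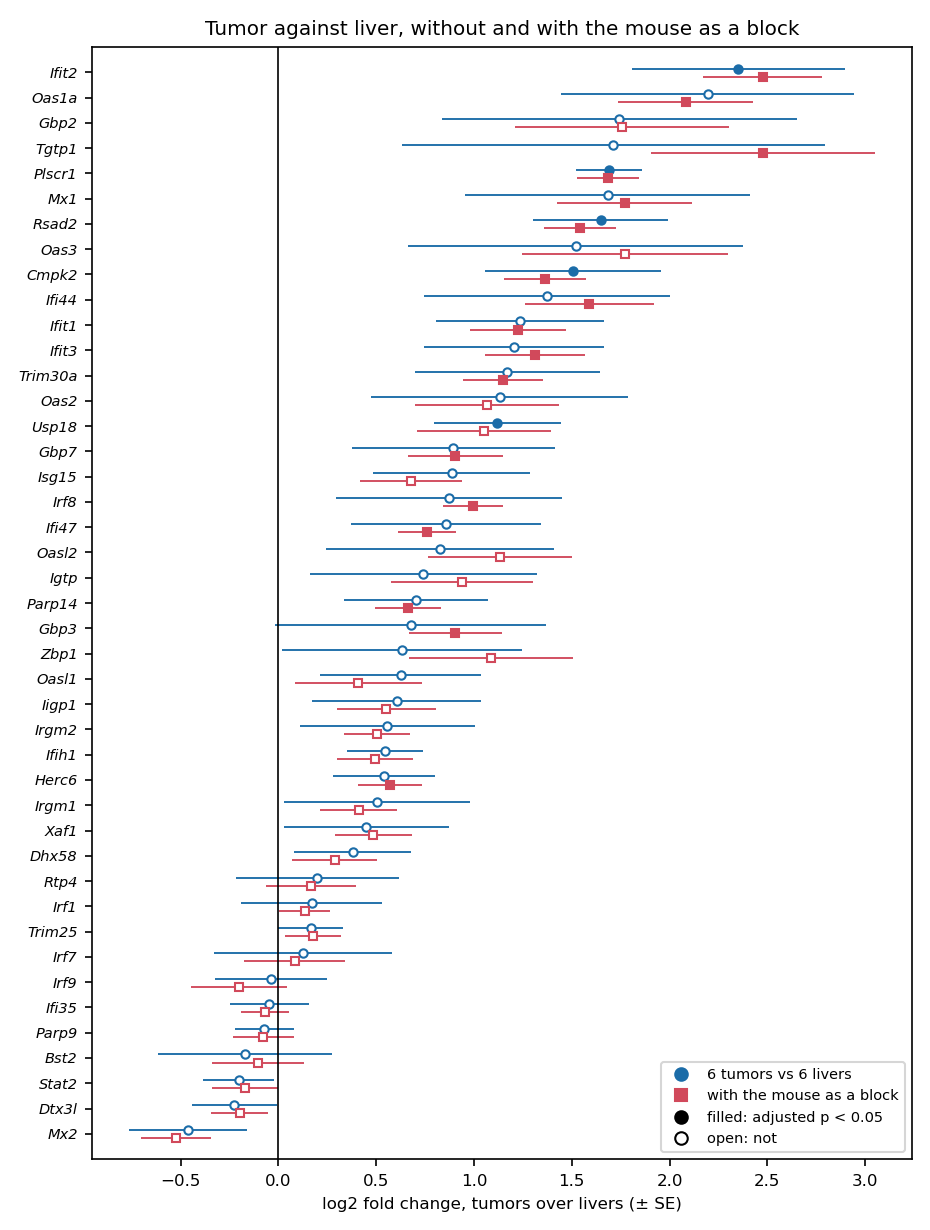
Points give the log2 fold change of tumors over livers with its SE for each of the 43 members, for the 6 tumors against the 6 livers (blue circles) and with the mouse as a block (red squares), filled where the adjusted p was under 0.05. Of the circles 5 are filled, and of the squares 17, all to the right of 0, and Mx2, at -0.46 and -0.52, is the member farthest to the left in both fits.

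Among the antiviral effectors, Plscr1 separated the tumors from the livers without overlap, as 2.93% of all genes tested did in this direction. Plscr1 is a membrane phospholipid scramblase that also restricts viral entry. It stood at 9.33 to 15.2 CPM in the livers (median 14) and at 32.4 to 53.2 CPM in the tumors (median 42.5). Its log2 fold change was 1.69 ± 0.17 (SE, n = 6 and 6; adjusted p = 0.000299), and it rose in each of the fits that left out 1 library. It was the only member without overlap. Its level in the liver of mouse L981 (15.2 CPM) was near that of the other livers, unlike most members.

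Rsad2 (viperin) and Cmpk2 are neighbors on chromosome 12 and act on nucleotides, Rsad2 by making a chain-terminating nucleotide and Cmpk2 as a mitochondrial kinase. Rsad2 was at 6.06 to 12.4 CPM in livers (median 7.40), at 11.1 and 24.8 CPM in the Ctnnb1-mutated tumors of mice p_662 and p_663, and at 27.7, 45.9, 39.3, and 14.1 CPM in the tumors of mice p_941, T_992, L981, and L984. Its log2 fold change was 1.65 ± 0.35 (adjusted p = 0.0100). Cmpk2 was at 5.23 to 17.2 CPM in livers (median 6.64), at 9.19 and 15 CPM in the Ctnnb1-mutated tumors, and at 28.8, 42.4, 46.5, and 10.3 CPM in the other 4. Its log2 fold change was 1.51 ± 0.45 (adjusted p = 0.0497), which lay at the threshold and was lost in 8 of the 12 fits that left out 1 library. Both genes were thus highest in the tumors of mice T_992 and L981. Rsad2 overlapped the livers in the tumor of mouse p_662 alone, and Cmpk2 in those of mice p_662, p_663, and L984.

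**Figure D4:**
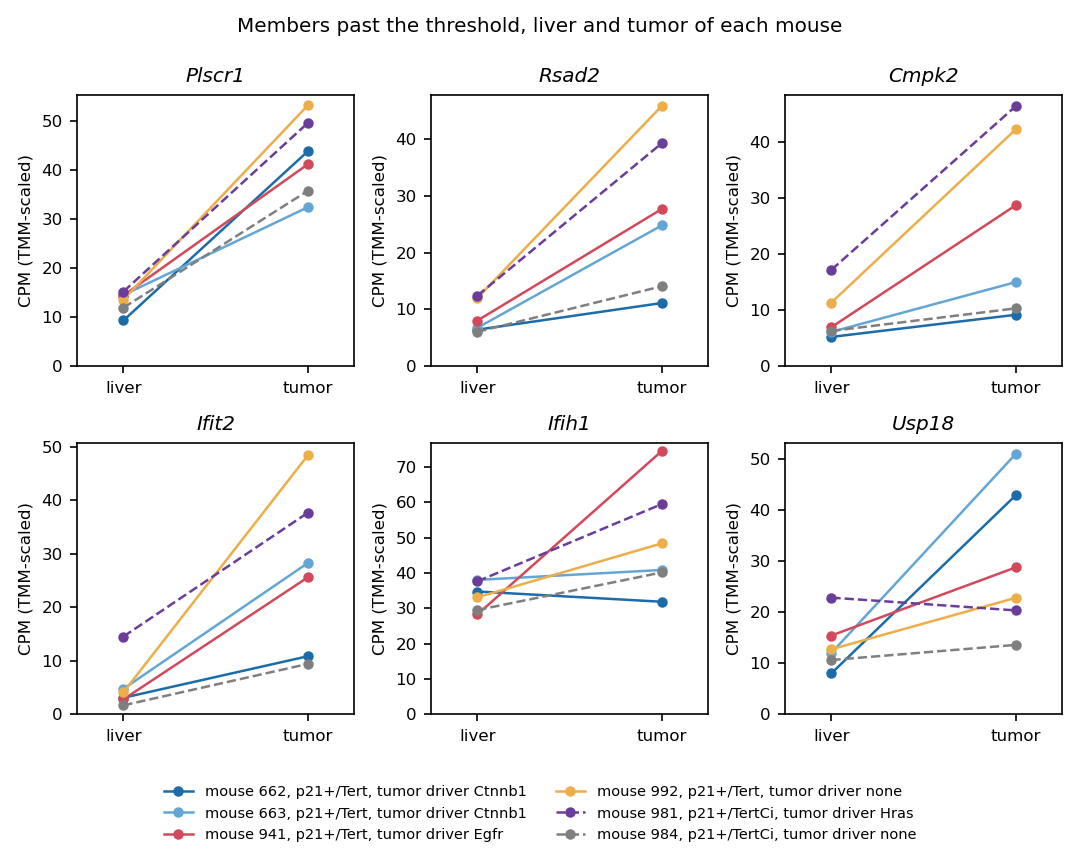
Lines join the liver and the tumor of each mouse (colors; dashed for p21+/TertCi) for the 6 members that passed the test in at least 1 comparison, with CPM on a linear axis from 0. Plscr1 rises in every mouse to 32.4 CPM or more, Rsad2, Cmpk2, and Ifit2 are highest in the tumors of mice T_992 and L981, and Usp18 is highest in the Ctnnb1-mutated tumors of mice p_662 and p_663.

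The other effectors did not pass this test. Bst2 (tetherin), which holds budding virions at the cell surface, was at 66.4 to 485 CPM in livers (median 296) and at 71.9 to 397 CPM in tumors (median 306). Its lowest values in both tissues were those of mouse L984. Mx1, a dynamin-like GTPase, was above its own liver in all 6 tumors, at 26.7 CPM in the tumor of mouse p_941 and 27.6 CPM in that of mouse L981 but at 2.95 and 3.76 CPM in those of mice L984 and T_992. Its relative Mx2 had a log2 fold change of -0.46 ± 0.30. Rtp4, Xaf1, and Ifi35 had log2 fold changes between -0.05 and 0.45.

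The IFIT proteins bind viral RNA and block its translation, and the 3 members lie near each other on chromosome 19. Ifit2 was at 1.70 to 14.5 CPM in livers (median 3.62), at 10.9 and 28.3 CPM in the Ctnnb1-mutated tumors, and at 25.6, 48.4, 37.6, and 9.43 CPM in those of mice p_941, T_992, L981, and L984. Every tumor was above the 5 livers other than that of mouse L981, and the log2 fold change was 2.35 ± 0.54 (adjusted p = 0.0162). Ifit3 was at 6.59 to 58.7 CPM in livers (median 20.5) and at 17.4 to 81.3 CPM in tumors (median 68.8), with a log2 fold change of 1.2 ± 0.46 (adjusted p = 0.114). It shares up to 1700 bases of at least 97% identity with Ifit3b, which was at 1.45 to 8.65 CPM in livers and 4.03 to 16.0 CPM in tumors, so that the split of reads between them is uncertain. With the mouse as a block all 3 IFIT genes rose.

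The OAS proteins sense double-stranded RNA, and the enzymatically active ones make a second messenger from ATP. None of the 5 members passed the test of all tumors, although all 5 had a log2 fold change above 0, from 0.62 to 2.20. Oas1a was at 1.36 to 18.1 CPM in livers (median 4.31) and at 89.5 CPM in the tumor of mouse p_663, followed by 34.5 CPM in mouse p_941, 28.4 CPM in mouse L981, 15.4 CPM in mouse T_992, 7.12 CPM in mouse p_662, and 4.94 CPM in mouse L984. The near-identical Oas1g (1861 shared bases) took the same order in its 2 highest tumors, with 44.3 CPM in mouse p_663 and 17.4 CPM in mouse p_941, and reads of the pair cannot be assigned with certainty. Oas1a did not pass in the fit of all 12 libraries (2.20 ± 0.75, adjusted p = 0.0777) but rose when the mouse was a block (2.08 ± 0.35, adjusted p = 0.00902) and without the liver of mouse L981 (2.86 ± 0.75, adjusted p = 0.0302). Oasl1 was at 15.3 to 36.9 CPM in livers (median 21) and at 8.92 to 71.6 CPM in tumors (median 36.0), with the tumor of mouse p_662 below every liver. The median of the 5 genes relative to the livers was 2.46 in the tumor of mouse p_941, 2.07 in mouse L981, 1.66 in mouse p_663, 1.23 in mouse T_992, -0.10 in mouse L984, and -0.29 in mouse p_662.

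The guanylate-binding proteins and immunity-related GTPases coat and break the vacuoles of intracellular pathogens. The group of 9 did not pass the test in any member, with log2 fold changes of 0.50 to 1.74 between tumors and livers. In the blocked fit Tgtp1, Gbp3, Gbp7, and Ifi47 rose, by 2.48 ± 0.57, 0.91 ± 0.24, 0.90 ± 0.24, and 0.76 ± 0.15 on the log2 scale (adjusted p = 0.0256, 0.0394, 0.0418, and 0.0147). Tgtp1 was at 24.2, 21, 86.8, 134, 168, and 3.41 CPM in the tumors of mice p_662, p_663, p_941, T_992, L981, and L984. In each mouse this was above its own liver, including the 108 CPM of the liver of mouse L981. Iigp1 was at 332 to 1066 CPM in livers (median 341), and only mouse L981 exceeded 393 CPM. It was at 325 and 283 CPM in the Ctnnb1-mutated tumors and at 829, 645, 1408, and 801 CPM in those of mice p_941, T_992, L981, and L984. The median of the 9 relative to the livers was 2.10, 1.70, and 1.27 in the tumors of mice L981, T_992, and p_941, but 0.38 in mouse p_663, -0.02 in mouse p_662, and -0.64 in mouse L984. In the tumor of mouse p_663 the OAS and IFIT medians (1.66 and 2.07) were therefore well above the GTPase median (0.38), whereas in that of mouse T_992 the GTPase and IFIT medians were 1.70 and 1.74. Tgtp1 shares up to 2811 bases with Tgtp2, which was at 9.10, 5.78, 21.4, 43.4, 57.2, and 1.93 CPM in the same 6 tumors.

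Chromosome 11 carries 10 of the 43 members, 5 of them GTPases, and the upstream sequence of 3 of these is shown because it holds both interferon elements at the same spacing. Isg15 is shown beside them as a member with the response element alone. Each stretch runs 5′ to 3′ on the strand of the gene, from 110 to 13 bases before the RefSeq start (GRCm38.p6), and overlaps no annotated exon. Capitals mark GAAANNGAAA (or its reverse complement), the core of the interferon-stimulated response element, and TTCNNNGAA, the core of the gamma-activated site.
Tgtp1, chr11:48992259-48992356, minus strand: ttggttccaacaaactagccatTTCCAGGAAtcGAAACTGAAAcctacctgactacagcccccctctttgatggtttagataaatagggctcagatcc
Igtp, chr11:58199446-58199543, plus strand: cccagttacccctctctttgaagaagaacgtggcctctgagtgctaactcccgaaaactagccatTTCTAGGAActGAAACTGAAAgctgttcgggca
Irgm2, chr11:58214867-58214964, plus strand: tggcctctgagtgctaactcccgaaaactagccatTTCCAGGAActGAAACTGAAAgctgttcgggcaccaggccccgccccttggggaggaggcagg
Isg15, chr4:156200831-156200928, minus strand: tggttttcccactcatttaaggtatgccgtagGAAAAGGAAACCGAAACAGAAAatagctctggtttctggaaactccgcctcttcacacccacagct

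In Tgtp1, Igtp, and Irgm2 the gamma-activated site begins 11 bases upstream of the response element. This spacing occurred in 5 of the 27025 genes with a promoter sequence (0.0185%). The spacing was taken from these members, so that their own match was fixed beforehand. The stretches of Igtp and Irgm2 are nearly the same around the elements, and that of Tgtp1 shares the bases just upstream. They are therefore not independent cases. In Isg15 the 3 capitalized response elements overlap each other and begin 78, 72, and 66 bases before the start. Over the 300 bases of each promoter (250 before and 50 after the start), GAAANNGAAA was found in 17 of the 33 members with an entry (51.5%) and in 3.99% of all genes. TTCNNNGAA was found in 11 of the 33 (33.3%) and in 9.55% of all genes. Both were found in Oas1a, Gbp7, Igtp, Irgm2, Bst2, and Tgtp1, and neither in 11 of the 33, Cmpk2 and Irf7 among them. Of the 5 members that rose in tumors, Plscr1 and Ifit2 held TTCNNNGAA alone, Rsad2 held GAAANNGAAA alone, Cmpk2 held neither, and Usp18 has no entry. The site of Plscr1 begins 90 bases before its RefSeq start and lies within the span of the gene as annotated by GENCODE. It is shown with 10 bases on either side because Plscr1 rose in the most comparisons.
Plscr1, chr9:92250094-92250122, plus strand: gtaaagaaagTTCCGAGAAgaggccactc

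The modifier Isg15 is attached to proteins much as ubiquitin is, by the ligase Herc6 in mice, and is removed by Usp18. Usp18 also blocks the type I interferon receptor and so ends its signal. Usp18 was at 8.05 to 22.9 CPM in livers (median 12.4), at 43 and 51.1 CPM in the Ctnnb1-mutated tumors, and at 28.8, 22.9, 20.4, and 13.6 CPM in those of mice p_941, T_992, L981, and L984. Both Ctnnb1-mutated tumors were above all other libraries, and 3 of the other 4 tumors were within the range of the livers or equal to its upper end. Its log2 fold change over all tumors was 1.12 ± 0.33 (adjusted p = 0.0433). This call was lost in 9 of the 12 fits that left out 1 library, and among the alternatives the adjusted p ran from 0.00987 to 0.127. Isg15 itself was at 8.72 to 23.5 CPM in livers and at 21.4, 31.1, 57.1, 46.7, 28.1, and 6.30 CPM in the tumors of mice p_662, p_663, p_941, T_992, L981, and L984, with a log2 fold change of 0.89 ± 0.40 (adjusted p = 0.180). Trim25, a ubiquitin ligase that activates the sensor RIG-I, varied little, at 99.6 to 161 CPM in livers (median 131) and 121 to 173 CPM in tumors (median 147).

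Of the 3 members in the ADP-ribosylation group, 0 passed the test of all tumors, and their median log2 fold change was -0.07. Parp9 and Dtx3l form a complex, and their genes overlap by 458 exonic bases, so that without strand information their reads cannot be fully told apart. Their log2 fold changes were -0.07 ± 0.15 and -0.22 ± 0.22. Parp14 was at 22.2 to 80.9 CPM in livers (median 42.0) and at 31.5 to 126 CPM in tumors (median 76.6). It was above its own liver in all 6 mice and rose when the mouse was a block (0.66 ± 0.17, adjusted p = 0.0336).

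Among the sensors of viral RNA and DNA, Ifih1 (MDA5) was at 28.3 to 38.0 CPM in livers (median 33.9), at 31.9 and 40.8 CPM in the Ctnnb1-mutated tumors, and at 74.5, 48.4, 59.5, and 40.2 CPM in the other 4. These 4 and the Ctnnb1-mutated tumor of mouse p_663 were above every liver. Over all tumors its log2 fold change was 0.54 ± 0.19 (adjusted p = 0.0881). Zbp1, a sensor of left-handed nucleic acid that can trigger necroptosis, was at 96.3 CPM in the liver of mouse L981 and at 6.29 to 25.1 CPM in the other livers, and at 17.6 to 73.9 CPM in tumors. Dhx58 (LGP2) was above its own liver in 3 mice.

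Of the 5 signal factors, 0 passed the test of all tumors. Stat2 was at 119 to 220 CPM in livers (median 158) and at 126 to 158 CPM in tumors (median 149), and Irf9 was at 46.3 to 66.8 CPM in livers and at 30.4 to 125 CPM in tumors. The highest Irf9 value was that of the tumor of mouse p_663, which was also the highest tumor for Irf7 (218 CPM), the same value to 3 digits as in the liver of mouse L981. Irf8, a factor of myeloid cells, was at 5.09 to 15.2 CPM in the 5 other livers, at 45.2 CPM in the liver of mouse L981, and at 9.43 to 63 CPM in tumors. It was higher in the tumor in all 6 mice and rose when the mouse was a block (0.99 ± 0.16, adjusted p = 0.00753). Irf1, a transcription factor induced early by interferon gamma, had a log2 fold change of 0.17 ± 0.36.

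To examine the driver classes, the 2 Ctnnb1-mutated and the other 4 tumors were each compared with the 6 livers and then with each other. In the other 4 tumors 5 members rose, beside 11.3% of 15182 genes. They were Plscr1 (1.76 ± 0.18, adjusted p = 0.000134), Rsad2 (1.86 ± 0.35, adjusted p = 0.00377), Ifih1 (0.68 ± 0.14, adjusted p = 0.00591), Cmpk2 (1.81 ± 0.42, adjusted p = 0.0106), and Ifit2 (2.52 ± 0.60, adjusted p = 0.0116). The median over the members was 0.82 against -0.03 over all genes. Without the liver of mouse L981, 28 members rose (12.5% of genes), Tgtp1 by 4.30 ± 0.82 and Gbp2 by 3.55 ± 0.76, with all 9 GTPases among them. With the mouse as a block 16 rose (10.5% of genes). Without the tumor of mouse T_992, 3 rose, and the calls of Cmpk2 and Ifit2 were lost.

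In the 2 Ctnnb1-mutated tumors 2 members rose against the livers, beside 5.00% of genes, namely Plscr1 (1.51 ± 0.21, adjusted p = 0.00178) and Usp18 (1.76 ± 0.32, adjusted p = 0.00729). The median over the members was 0.23 against -0.03 over all genes, and the GTPase median was -0.10. The block by mouse added Ifit2, the member median was 0.74, and the GTPase median turned to 0.78, with 0 of the 9 GTPases called. Without both libraries of mouse L981 the member median was 0.71. Without the liver of mouse L981, 6 rose. Leaving out the tumor of mouse p_662 gave 4, and leaving out that of mouse p_663 gave 1, Usp18 being lost.

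Between the Ctnnb1-mutated tumors and the other 4, 0 members were called by edgeR, beside 6.76% of genes that were higher and 5.72% that were lower. An unadjusted p under 0.05 was reached by 5 of the 43 members and by 30.2% of all genes. The smallest adjusted p was that of Usp18 (0.0541), with a log2 difference of 1.14 ± 0.35 toward the Ctnnb1-mutated tumors. Ifih1 (-0.59 ± 0.20), Iigp1 (-1.57 ± 0.53), and Cmpk2 (-1.39 ± 0.61) were lower in them without passing the test. DESeq2 called 3 members, Usp18 as higher and Iigp1 and Ifih1 as lower, and gave no adjusted p for Oas3, Oasl2, Gbp2, and Tgtp1. The log2 difference was below 0 for all 9 GTPases, from -2.08 to -0.78, but for 8 of the 9, all but Iigp1, the tumor of mouse L984 was at or below the higher of the Ctnnb1-mutated tumors. Blocking by mouse left 3 of the 9 above 0 (Igtp, Tgtp1, and Ifi47), Gbp2 moved from -2.08 to -0.23, and the median over the 43 members moved from -0.43 to -0.07. Without both libraries of mouse L981, Iigp1 was called as lower (adjusted p = 0.0238). Without the liver of mouse p_662 or without its tumor 1 member was called, and without the liver of mouse L981 there were 2.

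Between the Egfr- or Hras-mutated tumors (mice p_941 and L981) and those with neither a Ctnnb1, Egfr, nor Hras mutation (T_992 and L984), 0% of 15182 genes were called. By the study's histology the former are carcinomas and the latter adenomas, so that driver class and tumor type cannot be told apart in this comparison. The log2 difference was above 0 for 41 of the 43 members, with a median of 0.66 against -0.04 over all genes, and 5 members had an unadjusted p under 0.05 (8.77% of all genes), with Oas2 and Mx1 the lowest (2.69 ± 0.96 and 2.98 ± 1.07, adjusted p = 0.524 for both). Under the block by mouse the direction turned, with 17 of the 43 above 0 and a median of -0.17, and the values of Oas2 and Mx1 were 0.82 ± 0.88 and 0.55 ± 0.89. DESeq2 called 0 members and gave no adjusted p for Oas3, Oasl2, Gbp2, and Tgtp1. The 2 tumors without a Ctnnb1, Egfr, or Hras mutation differed widely from each other, with Gbp2 at 89.1 CPM in mouse T_992 and 2.10 CPM in mouse L984.

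The genotypes were compared by testing tumors against livers within each and then the difference between the 2 effects. In p21+/Tert mice (n = 4 and 4), 4 members rose and 0 fell, beside 4.20% of genes that rose. These were Plscr1 (1.70 ± 0.22, adjusted p = 0.00301), Usp18 (1.57 ± 0.33, adjusted p = 0.0214), Ifit2 (2.91 ± 0.67, adjusted p = 0.0283), and Rsad2 (1.70 ± 0.46, adjusted p = 0.0493). Of the 12 fits that left out 1 library, Ifit2 kept its call in 6 and Rsad2 in 3. The median over the members was 1.13 against 0.04 over all genes, and 41 of the 43 were above 0. With the mouse as a block 19 members rose (5.17% of genes), with Gbp2, Igtp, Tgtp1, Isg15, and Zbp1 among them. DESeq2 called 12, and so did edgeR with only the 8 libraries of these mice. Leaving out the liver of mouse p_662 or p_663 gave 1 and leaving out the liver or the tumor of mouse p_941 or T_992 gave 2, Plscr1 being called each time.

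In p21+/TertCi mice (n = 2 and 2), 0% of genes were called. Plscr1 had a log2 fold change of 1.64 ± 0.30 (adjusted p = 0.200), beside 1.70 ± 0.22 in p21+/Tert mice, and was the 1 member called by DESeq2 (adjusted p = 0.000478). The median over the members was 0.21, and 4 of the 43 had an unadjusted p under 0.05, as had 10.7% of all genes. The difference between the genotypes (p21+/TertCi minus p21+/Tert) also gave 0% of genes, 2 members with an unadjusted p under 0.05 (3.66% of all genes), and 0 members by DESeq2. DESeq2 gave no adjusted p for many members here, Usp18, Plscr1, Rsad2, and Ifit2 among them, and so could not call these. The difference was below 0 for 41 of the 43 members, with a median of -0.70 against -0.06 over all genes. The high liver of mouse L981 enters this difference with a negative sign. Without both libraries of mouse L981, which leaves 1 p21+/TertCi mouse, the median was -0.52 and 40 of the 43 were below 0. These comparisons share their livers and their tumors with those by driver class and are not independent of them.

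The rest of the pathway was read from lists of its genes. Of 21 interferon genes, 17 had 0 reads in every library, Ifnb1 and both lambda genes included. Ifna15 and Ifnz had 1 read each, in the tumors of mice p_941 and L981, and Ifnk had 8 reads over 6 libraries. A count of 0 allows up to 3 reads, or 0.107 to 0.228 CPM, in these libraries. Interferon gamma (Ifng) was at 1.75 CPM in the tumor of mouse L981, 1.09 CPM in its liver, and 0.76 CPM in the tumor of mouse p_941, and at no more than 0.23 CPM in the other 9 libraries. It had 0 reads in the tumor of mouse T_992, whose Tgtp1 was at 134 CPM, and too few reads over the libraries to be tested between tumors and livers.

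Of 9 receptor subunits and kinases, 4 rose in tumors (6.77% of all genes) and 0 fell, and all 9 had a log2 fold change above 0. Ifngr1, the ligand-binding chain of the gamma receptor, was at 13.7 to 38.1 CPM in livers (median 16.9) and at 46.1 to 82.6 CPM in tumors (median 67.6), without overlap (2.93% of all genes), and had a log2 fold change of 1.71 ± 0.25 (adjusted p = 0.00184). Its partner Ifngr2 rose by 0.99 ± 0.20 (adjusted p = 0.00831). Ifnlr1, the chain particular to type III interferons, was at 0.06 to 0.68 CPM in livers, at 0.09 and 2.24 CPM in the Ctnnb1-mutated tumors, and at 10.9, 6.41, 4.83, and 6.53 CPM in those of mice p_941, T_992, L981, and L984. Its log2 fold change was 4.04 ± 0.85 (adjusted p = 0.00980). Il10rb, which pairs with Ifnlr1, rose by 1.16 ± 0.32 (adjusted p = 0.0345). The type I receptor chains did not pass the test, with Ifnar1 at 47.1 to 79.4 CPM in livers and 54.5 to 80.5 CPM in tumors. In the tumor of mouse L984, where most members were low, Ifngr1 was at 65.4 CPM.

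**Figure D5:**
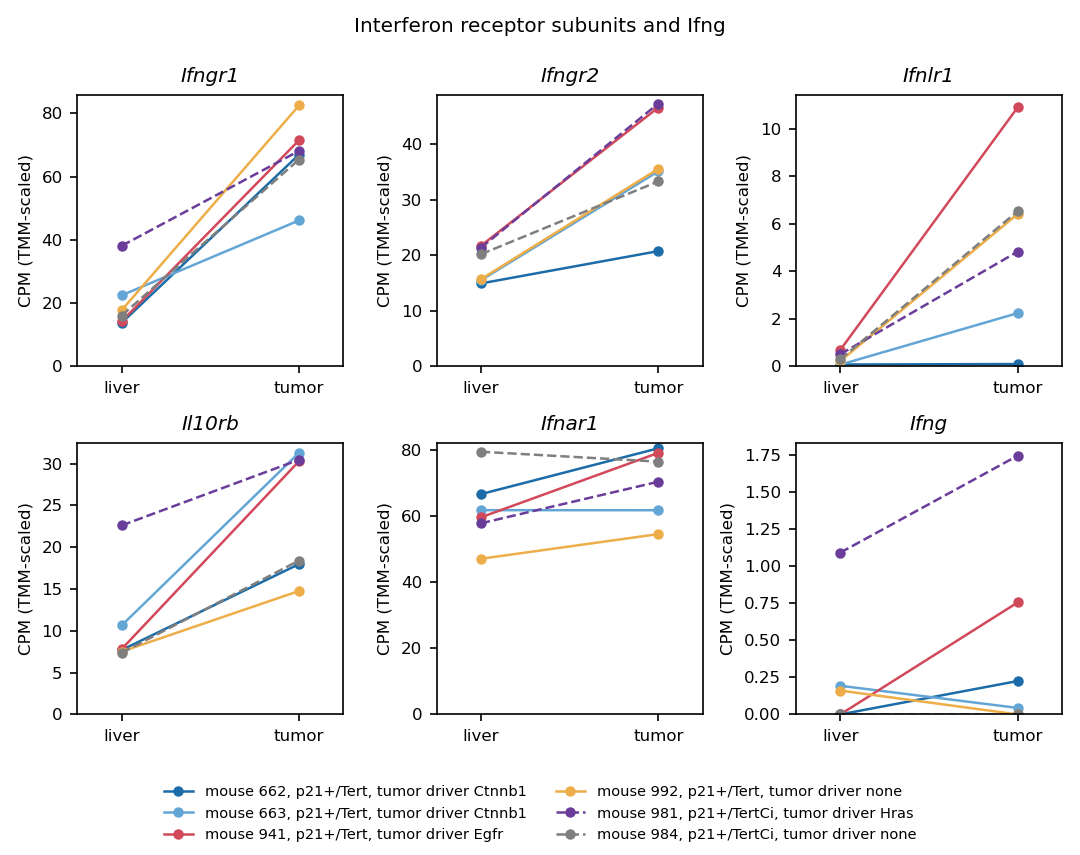
Lines join the liver and the tumor of each mouse (colors; dashed for p21+/TertCi) for 5 interferon receptor subunits and Ifng, with CPM on a linear axis from 0. Ifngr1 rises to 46.1 CPM or more in every mouse, Ifnlr1 reaches 4.83 CPM or more in the 4 tumors without a Ctnnb1 mutation, and Ifng is highest in mouse L981.

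Jak1 and Jak2, the kinases of the gamma receptor, were lower in the Ctnnb1-mutated than in the other tumors, by -1.28 ± 0.29 (adjusted p = 0.0191) and -1.04 ± 0.24 (adjusted p = 0.0189) on the log2 scale. Of the 16 genes of sensing upstream of interferon, 1 fell in tumors (3.91% of all genes), the transcription factor gene Irf3 (-0.50 ± 0.14, adjusted p = 0.0355), and 0 rose. In the fit blocked by mouse 5 rose (8.64% of all genes), the RNA sensors Tlr7 (adjusted p = 0.0253) and Tlr3 (adjusted p = 0.0337) among them, and Irf3 still fell. Ddx58 (RIG-I) was lower in the Ctnnb1-mutated than in the other tumors (-0.99 ± 0.25, adjusted p = 0.0275). Between these tumor classes 0 genes of either list, Jak1, Jak2, and Ddx58 included, passed with the mouse as a block. Of 8 genes that clear nucleic acids, 0 passed the test between tumors and livers, and Rnaseh2c, a subunit of an enzyme that cuts RNA paired with DNA, fell once the mouse was a block (-0.86 ± 0.12, adjusted p = 0.00573). In that blocked fit 1008 of 13822 genes fell. None of the 8 negative regulators passed the test between tumors and livers. Socs1, an inhibitor of the kinases that is itself induced by interferon gamma, was at 12.6 and 17.1 CPM in the tumors of mice T_992 and L981 and at 0.34 CPM in that of mouse L984.

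Of 50 further interferon-stimulated genes, 48 were tested and 0 passed between tumors and livers, with 38 above 0 and a median log2 fold change of 0.33. With the mouse as a block 13 rose, beside 8.64% of all genes, and 2 fell, beside 1008 of 13822 genes. Among the 13 were Ifit3b, Oas1g, and Tgtp2, near-identical to the members Ifit3, Oas1a, and Tgtp1. Reads of these pairs cannot be assigned with certainty, so that they are not separate cases. Cxcl9 and Cxcl10, chemokines that draw T cells and are induced by interferon gamma, rose in that fit by 2.85 ± 0.59 (adjusted p = 0.0178) and 1.95 ± 0.21 (adjusted p = 0.00301). Cxcl9 was at 2.71 to 21.1 CPM in the 5 other livers and at 142 CPM in that of mouse L981. In the tumors it was at 57.2, 36.4, 284, 492, 429, and 12.6 CPM in mice p_662, p_663, p_941, T_992, L981, and L984. Ifitm2, which blocks the fusion of viruses with endosomes, and Apol9b fell in the same fit (-0.70 ± 0.17 and -0.95 ± 0.23, adjusted p = 0.0272 and 0.0289).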

How the data were processed

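Paired-end reads of poly(A) RNA were filtered by the authors at Phred 30, aligned by Subread to an mm10 genome that included mCherry, and counted per gene by featureCounts 1.6.4. The deposited values are raw counts per gene symbol, 1 table per library, without normalization. The annotation, strand setting, and treatment of multiple alignments are not given in the sources used here. A correction by sequencing run that the authors applied was left out here, since the labels do not tie samples to runs.

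Samples were grouped by tissue and genotype from the labels and by driver from the exome results of the study. The liver whose label carries another number was taken as that of mouse p_662, since the header of its table gives p_662. Same-numbered libraries were taken as those of 1 mouse. Over 13822 genes, the deviations of a tumor and its liver from their group means correlated with r of 0.19, 0.05, 0.04, and 0.44 in mice p_662, p_663, p_941, and T_992 and 0.55 in the p21+/TertCi pair, where groups of 2 give a single value. The highest r with the liver of another mouse was 0.17, 0.24, 0.07, and 0.11 for the same p21+/Tert tumors. It was above the value of the own liver in mice p_663 and p_941 and well below it only in mouse T_992. The pairing of the p21+/Tert mice thus rests mainly on the labels and headers. Libraries of a group differed by far more than sampling noise, with a mean chi-square per gene of at least 71.4.

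Counts were scaled by TMM and tested with edgeR 4.0.16 (filterByExpr, quasi-likelihood F test, Benjamini-Hochberg adjustment over all genes tested, threshold 0.05) in R 4.3.3, after tests on simulated data. Models were fitted over all 12 libraries by tissue, by driver class, or by genotype and tissue. Standard errors were taken as the absolute log2 fold change divided by the square root of F. Whether the mice came from separate litters is not stated. The 43 members, their role groups, and the pathway and marker lists were chosen with earlier results of these data known. Library values are given for members past the threshold in any comparison and for the member of highest mean CPM in each role group (Stat2, Ifih1, Oasl1, Ifit3, Bst2, Iigp1, Trim25, and Parp14). From the other lists, genes past the threshold and Ifng are named, some items not being reported here, and other genes given by library were chosen after their values were seen. Alternatives were DESeq2 1.42.0, RLE scaling, no filter beyond 1 count, each library left out, the mouse as a block, and only the libraries compared. Leaving out both libraries of mouse L981 was added after seeing the data. Gene positions are from GENCODE M21, near-identical transcripts were searched with blastn (at least 97% identity over 150 bases), and promoters are from RefSeq (GRCm38.p6).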

Additional observations from a re-analysis of the deposited data

Results flagged for a closer look

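Each member was checked in the 6 livers, the 6 tumors, the 4 p21+/Tert livers, and the 4 p21+/Tert tumors for a library whose gap to its nearest neighbor, on the log2(CPM + 1) scale, exceeded Dixon's 95% critical value. Of 172 such groups 14 did, and chance alone picks about 1 in 20. The liver of mouse L981 was the high library in 8 of the 14. It stood at 37.1 CPM for Oas2, 11 CPM for Oas3, 36.2 CPM for Oasl2, 45.2 CPM for Gbp2, 75 CPM for Gbp7, 231 CPM for Irgm1, 1070 CPM for Iigp1, and 108 CPM for Tgtp1, while the next liver stood at 9.86, 1.97, 7.22, 5.9, 21.5, 98.2, 393, and 9.25 CPM. Macrophage and T and NK cell markers were high in the same library, and their part was not tested.

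Mouse L984 was low for Bst2 in both tissues, at 66.4 CPM in the liver (next 268 CPM) and 71.9 CPM in the tumor (next 235 CPM). The tumor of mouse p_663 was high for Irf9 at 125 CPM (next 51.7 CPM). Within the 4 p21+/Tert livers, that of mouse T_992 was high for Dtx3l at 69 CPM (next 46.4 CPM) and that of mouse p_662 low for Plscr1 at 9.33 CPM (next 13.6 CPM). Within the 4 p21+/Tert tumors, that of mouse p_662 was low for Ifit3 at 36.4 CPM (next 72.2 CPM).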

How the results depend on the processing

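No log2 fold change of a called member changed sign under any alternative. Leaving out 1 library gave 3 to 19 members called in all tumors against livers, 3 to 28 in the tumors without a Ctnnb1 mutation, 1 to 6 in the Ctnnb1-mutated tumors, 1 to 5 in p21+/Tert mice, and 0 to 2 between Ctnnb1-mutated and other tumors, and 0 in the other 4 comparisons. Where this left 1 sample in a group, that sample was assumed to vary like the others. The mouse as a block gave 17, 16, and 19 members in all tumors, the tumors without a Ctnnb1 mutation, and p21+/Tert mice, and 15, 16, and 15 with the pair of mouse p_662 also left out. Without that pair the block gave 0 members in the Ctnnb1-mutated tumors, where 1 mouse then remained. The block moved no other count of members called by over 1.5 times, but between tumor classes it turned directions, as given with those comparisons. It could not be fitted for the livers of the 2 genotypes. DESeq2 gave 3 between Ctnnb1-mutated and other tumors, 8 in the tumors without a Ctnnb1 mutation, 12 in p21+/Tert mice, and 1 in p21+/TertCi mice, and only the libraries compared gave 12 in p21+/Tert mice. Without both libraries of mouse L981, a choice made after seeing the data, the counts were 10 in all tumors, 18 in the tumors without a Ctnnb1 mutation, 5 in the Ctnnb1-mutated tumors, 10 in p21+/Tert mice, and 1 between Ctnnb1-mutated and other tumors. For the fits that left out libraries, for only the libraries compared, and for DESeq2, most counts stand without the share of all genes called. The fits without both libraries of mouse L981 are included in this. Such counts describe how the calls of the members held and do not set the members apart from other genes. The cause of these shifts was not tested. With the own liver as reference the median of the members in the tumor of mouse L981 moved from 1.70 to 0.27; the medians of the other libraries moved by less than the SD of the livers. RLE size factors and every gene with at least 1 count left each count within 1.5 times. The run of each library, 2 p21+/TertCi mice, and 2 tumors per driver class limit the comparisons.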
